A study of Homo sapiens with 8 samples.

Results

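Transcripts of 10 chemokine genes were followed in SKBR3, a human HER2-amplified breast cancer cell line: CCL20, CXCL8, CXCL1, CXCL2, CXCL3, CX3CL1, CCL2, CCL5, CXCL10 and CXCL11. These genes were chosen by their values on these arrays, chiefly the ethanol array, so every difference that involves that array is a description. All 10 were found, through 17 of the 54675 probe sets, among 19775 genes measured; each of the 17 carries only 1 gene in the platform annotation. They were placed by general knowledge into 7 chemokines driven mainly by NF-kB (CCL20, CXCL8, CXCL1, CXCL2, CXCL3, CCL2 and CX3CL1), 2 driven mainly by interferon (CXCL10 and CXCL11), and CCL5, which answers to both.

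The series holds 1 Affymetrix array for each of 8 conditions. All cells spent 4 h in medium with 10% charcoal-stripped serum, which is poor in steroids, and were then left untreated or treated for 3 h. Treatments were ethanol (0.1%), in which estradiol is dissolved; free estradiol (1e-06 M); bovine serum albumin, BSA (1e-06 M); its conjugate with the hormone, E2-BSA (1e-06 M); G15, an antagonist of the membrane estrogen receptor GPER, at 1e-05 M; and E2-BSA at 1e-06 M with ICI at 1e-05 M or with G15 at 1e-05 M. The labels name ICI only by these letters. The cells are a single line in culture.

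Chemokines are small secreted proteins that draw leukocytes along a gradient by binding G-protein-coupled receptors. In epithelial cells most of them are silent until tumor necrosis factor, interleukin 1 or a microbial signal frees NF-kB from its inhibitors, after which their transcripts appear within hours and are then degraded quickly through AU-rich elements. CXCL10 and CXCL11 are best known as targets of interferon, and NF-kB adds to their induction.

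Each probe set had been centred across arrays before deposit, so a value is a departure from that probe set's own middle value and not a level, and levels of different genes cannot be compared. Values were read as log2 units, and a gene's value is the mean of its probe sets. With 1 array per condition no difference has a replicate error, and no test was made. As a yardstick, BSA minus untreated had an SD of 0.17 over all genes. The arrays' SDs over all probe sets ran from 0.11 to 0.28, the highest being that of the ethanol array.

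The 10 chemokines were high on the ethanol array and nowhere else. On the other 7 arrays their gene values lay between -0.40 and 0.62, and on the ethanol array between 1.29 and 7.61. Against the untreated array all 10 were at least 2-fold (1 log2 unit) higher, where 0.87% of all genes were; the members were selected on this difference, and nothing is read from their count. Their median difference was 3.14, that of all genes -0.03. The 3 largest differences of all 19775 genes were those of CCL20, CXCL8 and CXCL1, in this order, and CXCL3 ranked 7, CCL2 9, CXCL10 14 and CX3CL1 19. CXCL11 ranked 52, CXCL2 65 and CCL5 109. The 7 NF-kB-driven members had a median difference of 4.45, and CXCL10 and CXCL11 differed by 2.86 and 1.82. The NF-kB-driven members ran from 1.65 to 7.73, but 1.65 is the mean of CXCL2 probe sets that disagree. The next lowest of them was CX3CL1 at 2.66, below CXCL10 and above CXCL11.

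**Figure D1:**
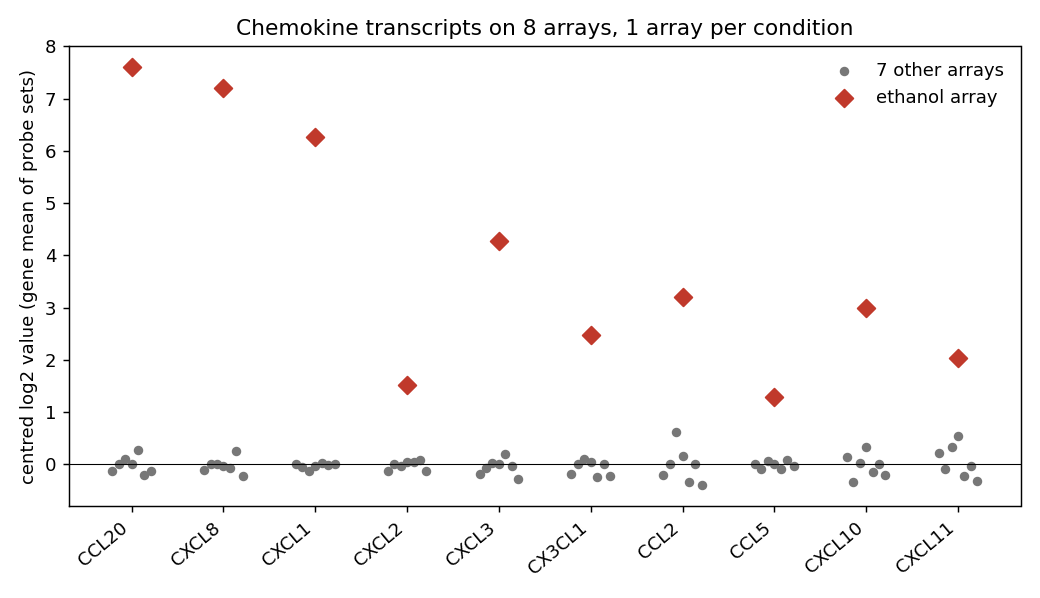
Centred log2 value of each chemokine (mean of its probe sets, y axis) on the ethanol array (red diamonds) and the other 7 arrays (grey points), 1 array per condition. The ethanol values run from 1.29 for CCL5 to 7.61 for CCL20, and no grey point lies above 0.62.

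CXCL8, CXCL1, CXCL2 and CXCL3 are the neutrophil-attracting chemokines of the group; they bind the receptors CXCR1 or CXCR2. CXCL8, interleukin 8, stood at 7.21 on the ethanol array, and at -0.12 on the untreated, 0.01 on the BSA, 0.00 on the estradiol, -0.03 on the E2-BSA, -0.08 on the G15, 0.27 on the E2-BSA plus ICI and -0.22 on the E2-BSA plus G15 array. Its 2 probe sets gave ethanol minus untreated differences of 8.13 (280-fold) and 6.52 (92.0-fold). The larger comes from a probe set whose x suffix marks probes that can match other transcripts. Both put ethanol far above the remaining arrays, and the order of those differs between them.

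CXCL1, first known as a melanoma growth factor, has a single probe set. It stood at 6.28 with ethanol, 0.01 in untreated cells, -0.04 with BSA, -0.13 with estradiol, -0.04 with E2-BSA, 0.04 with G15, -0.01 with E2-BSA plus ICI and 0.00 with E2-BSA plus G15. Without the ethanol array its range was 0.17, and 83.6% of all genes had a range at least as wide, so a gene with 1 of the 3 largest ethanol differences was among the steadier ones on the other arrays. CXCL3, its close relative, stood at 4.28 with ethanol, -0.18 in untreated cells, -0.06 with BSA, 0.03 with estradiol, 0.00 with E2-BSA, 0.20 with G15, -0.03 with E2-BSA plus ICI and -0.27 with E2-BSA plus G15. The gap from ethanol to its next array, G15, was 4.07.

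CXCL2 is the member whose probe sets disagree. On the ethanol array its probe set of suffix x stood at 4.56, while the 2 without a suffix both stood at exactly 0.00. Against untreated the differences were 4.97, -0.01 and -0.01, an SD over probe sets of 2.88, so that the gene mean of 1.65 describes none of them. CXCL1 and CXCL3 are close paralogs of CXCL2, and whether the probe set of suffix x read their transcripts was not tested. On the remaining arrays that probe set ran from -0.41 (untreated) to 0.29 (E2-BSA plus ICI), and the gene mean from -0.13 to 0.09.

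**Figure D2:**
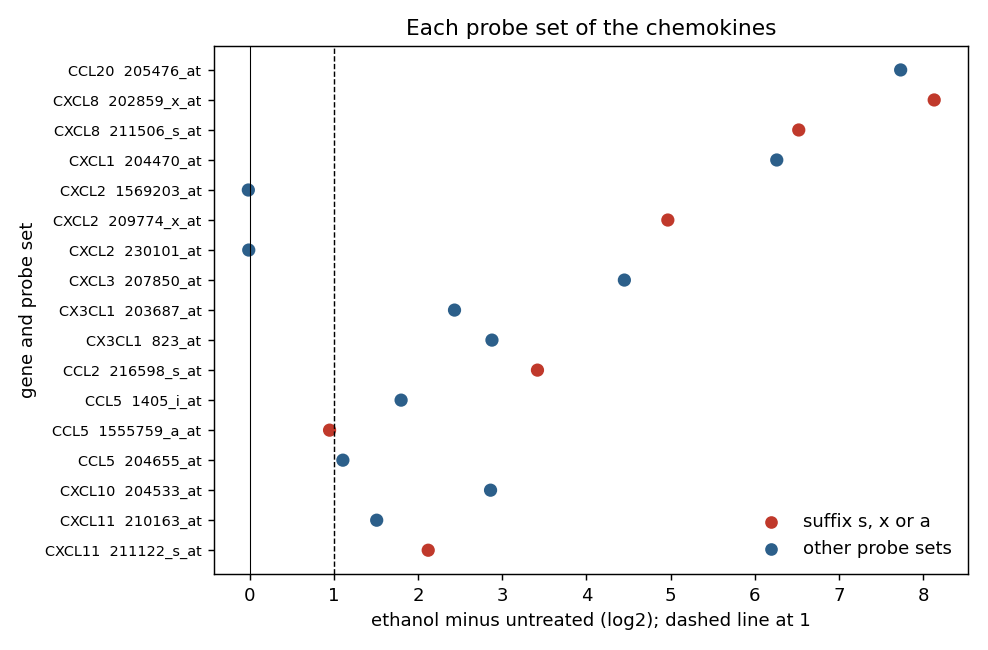
Ethanol minus untreated difference (log2, x axis) of each of the 17 chemokine probe sets (y axis), with those of suffix s, x or a in red. Of the 17, 14 lie at or past 1, and the 2 unsuffixed CXCL2 probe sets lie at -0.01. Among all genes 0.87% were at or past 1, and the share of all probe sets was not counted. The members were selected on this difference, so nothing is read from the 14.

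CCL20 attracts cells that carry CCR6, such as immature dendritic and Th17 cells, and is made by epithelia. It stood at 7.61 with ethanol, -0.12 in untreated cells, 0.00 with BSA, 0.10 with estradiol, 0.00 with E2-BSA, 0.27 with G15, -0.20 with E2-BSA plus ICI and -0.12 with E2-BSA plus G15. Ethanol was 7.34 above the next array. The profile most like that of CCL20, by the root mean square difference of values over the 8 arrays, was that of CXCL8 (0.25), then CXCL1 (0.50) and SELE, the endothelial adhesion molecule E-selectin (0.64). For CXCL1 the nearest were SELE (0.26), CXCL8 (0.36) and TNF (0.40). This likeness rests almost wholly on the ethanol value.

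Promoters were compared because these genes were high together on the ethanol array. RefSeq promoter sequences (GRCh38.p14, from 250 bases before to 50 after the annotated start) were at hand for 7 members: CCL20, CXCL8, CXCL1, CXCL2, CXCL3, CXCL10 and CXCL11. The letters GGAATTTCC, the core of a classical NF-kB site, occur on either strand in 6 of the 7. Among 27305 promoters of the same length, the first listed for each gene, 0.472% hold them, and 0.449% of the 15384 whose gene is on the array. The motif was chosen with these promoters in view and the members for their ethanol values, so nothing is read from this contrast. The 6 sites are shown with 10 bases before and 11 after, the core in capitals; in CXCL10 and CXCL11 it lies on the opposite strand and reads in reverse complement.
CXCL8: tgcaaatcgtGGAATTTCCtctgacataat
CXCL1: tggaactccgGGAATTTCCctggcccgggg
CXCL2: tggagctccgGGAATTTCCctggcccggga
CXCL3: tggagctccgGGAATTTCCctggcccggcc
CXCL10: aggagcagagGGAAATTCCgtaacttggag
CXCL11: actcaaagagGGAAATTCCtgtgccataaa
They lie at chr4:73740468-73740497, plus strand (CXCL8); chr4:73869305-73869334, plus strand (CXCL1); chr4:74099253-74099282, minus strand (CXCL2); chr4:74038748-74038777, minus strand (CXCL3); chr4:76023654-76023683, minus strand (CXCL10); and chr4:76036126-76036155, minus strand (CXCL11).

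The core begins 91 bases before the start of CXCL8, 78 before those of CXCL1 and CXCL3, 77 before that of CXCL2, 75 before that of CXCL11 and 176 before that of CXCL10. Around it CXCL1, CXCL2 and CXCL3 are nearly the same letter for letter, so the sites of these 3 do not count separately. CXCL1 and CXCL3 promoters were 68.7% identical without gaps, CXCL2 and CXCL3 share a run of 37 bases that includes the site, and CXCL8 shares with each of the 3 no run longer than the 9 bases of the core. CXCL10 and CXCL11 share a run of 13 bases that includes it. Outside the chemokines, 120 genes that were 2-fold higher with ethanol had a promoter here, and 6 of them (5.00%) hold the core: ICAM1, MAP3K8, NFKB1, NFKBIA, NFKBIZ and REL, named after this count was seen. A match of letters is a description of the sequence and does not show a factor bound there.

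The whole promoter is printed for the gene without the core and for 3 that differ in their other motifs. In CCL20 (chr2:227813592-227813891, plus strand) capitals mark matches to a loose NF-kB pattern, GGG and CC with any 5 bases between, on either strand and overlapping; 58.0% of all promoters hold that pattern. In CXCL8 (chr4:73740319-73740618, plus strand) they mark the core and an AP-1 site (TGANTCA, in 7.76% of promoters), in CXCL1 (chr4:73869143-73869442, plus strand) the core, and in CXCL10 (chr4:76023448-76023747, minus strand) the core and an interferon-stimulated response element (GAAA, any 2 bases and GAAA, in 3.65% of promoters).
CCL20: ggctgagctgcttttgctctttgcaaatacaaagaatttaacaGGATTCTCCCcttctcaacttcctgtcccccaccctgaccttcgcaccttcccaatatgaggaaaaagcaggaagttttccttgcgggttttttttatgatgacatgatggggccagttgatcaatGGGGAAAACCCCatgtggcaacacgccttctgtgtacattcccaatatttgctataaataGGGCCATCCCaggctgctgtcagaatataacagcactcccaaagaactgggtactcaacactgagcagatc
CXCL8: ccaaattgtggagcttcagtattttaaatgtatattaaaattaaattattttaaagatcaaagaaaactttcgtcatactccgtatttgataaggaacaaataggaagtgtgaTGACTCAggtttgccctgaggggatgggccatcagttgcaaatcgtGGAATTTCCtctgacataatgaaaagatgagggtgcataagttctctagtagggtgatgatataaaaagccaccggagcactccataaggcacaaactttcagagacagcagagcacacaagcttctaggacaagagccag
CXCL1: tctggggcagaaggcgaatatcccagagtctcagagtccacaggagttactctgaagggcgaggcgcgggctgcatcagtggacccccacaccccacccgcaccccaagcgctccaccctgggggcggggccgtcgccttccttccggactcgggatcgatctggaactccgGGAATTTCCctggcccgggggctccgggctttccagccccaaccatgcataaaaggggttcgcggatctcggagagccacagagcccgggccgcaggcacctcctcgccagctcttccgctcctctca
CXCL10: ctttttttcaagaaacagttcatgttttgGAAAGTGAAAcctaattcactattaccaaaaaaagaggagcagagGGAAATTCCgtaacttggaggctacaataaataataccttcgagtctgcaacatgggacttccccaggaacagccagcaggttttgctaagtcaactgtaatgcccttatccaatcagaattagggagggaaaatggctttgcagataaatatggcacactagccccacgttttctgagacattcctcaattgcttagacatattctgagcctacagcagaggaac
Of the 7 promoters the response element was found in CXCL10 alone. The AP-1 pattern was found in CXCL8 and CXCL11, and TATAAA, on either strand, in CCL20, CXCL8 and CXCL11, beside 12.0% of all promoters.

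CCL2 and CX3CL1 draw monocytes, the former through CCR2 and the latter, also called fractalkine, as a membrane-tethered ligand of CX3CR1. CCL2 stood at 3.21 with ethanol, -0.21 in untreated cells, 0.00 with BSA, 0.62 with estradiol, 0.17 with E2-BSA, -0.35 with G15, 0.01 with E2-BSA plus ICI and -0.40 with E2-BSA plus G15. It is the member that varied most apart from ethanol: its range over the other 7 arrays was 1.02, and 0.202% of all genes had a range at least as wide. Estradiol was highest of those 7, and both arrays with G15 were lowest. The value rests on a single probe set, of suffix s. CCL2 was nearest to PLK2 (0.24), RASD1 (0.27) and CXCL10 (0.30) by the same measure of likeness.

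CX3CL1 stood at 2.48 with ethanol, -0.18 in untreated cells, 0.00 with BSA, 0.10 with estradiol, 0.04 with E2-BSA, -0.24 with G15, 0.00 with E2-BSA plus ICI and -0.23 with E2-BSA plus G15. Its 2 probe sets gave ethanol differences of 2.43 and 2.88 and place the untreated and both G15 arrays as the 3 lowest. CCL5, also called RANTES, attracts T cells. It stood at 1.29 with ethanol, 0.00 in untreated cells, -0.08 with BSA, 0.07 with estradiol, 0.01 with E2-BSA, -0.09 with G15, 0.08 with E2-BSA plus ICI and -0.04 with E2-BSA plus G15. It had the smallest ethanol difference of the 10, and its 3 probe sets gave 0.95, 1.11 and 1.80, so that 1 of them was below 2-fold.

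CXCL10 and CXCL11 attract activated T cells through CXCR3. CXCL10 stood at 3.00 with ethanol, 0.13 in untreated cells, -0.33 with BSA, 0.03 with estradiol, 0.33 with E2-BSA, -0.15 with G15, 0.00 with E2-BSA plus ICI and -0.21 with E2-BSA plus G15. CXCL11 stood at 2.04 with ethanol, 0.22 in untreated cells, -0.09 with BSA, 0.32 with estradiol, 0.55 with E2-BSA, -0.22 with G15, -0.03 with E2-BSA plus ICI and -0.33 with E2-BSA plus G15. In both genes E2-BSA was highest after ethanol, and the BSA and both G15 arrays were the 3 lowest. For CXCL11 the low place of BSA depends on the probe set. In its probe set of suffix s BSA stood at 0.00, above E2-BSA plus ICI at -0.06. The ranges of CXCL10 and CXCL11 without ethanol, 0.66 and 0.88, were reached by 3.19% and 0.632% of all genes. The nearest profiles to CXCL10 were those of PMAIP1 (0.13), PLK2 (0.18) and GADD45A (0.22), which are not chemokines: PMAIP1 encodes the cell death protein NOXA and GADD45A a stress-induced growth arrest protein.

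**Figure D3:**
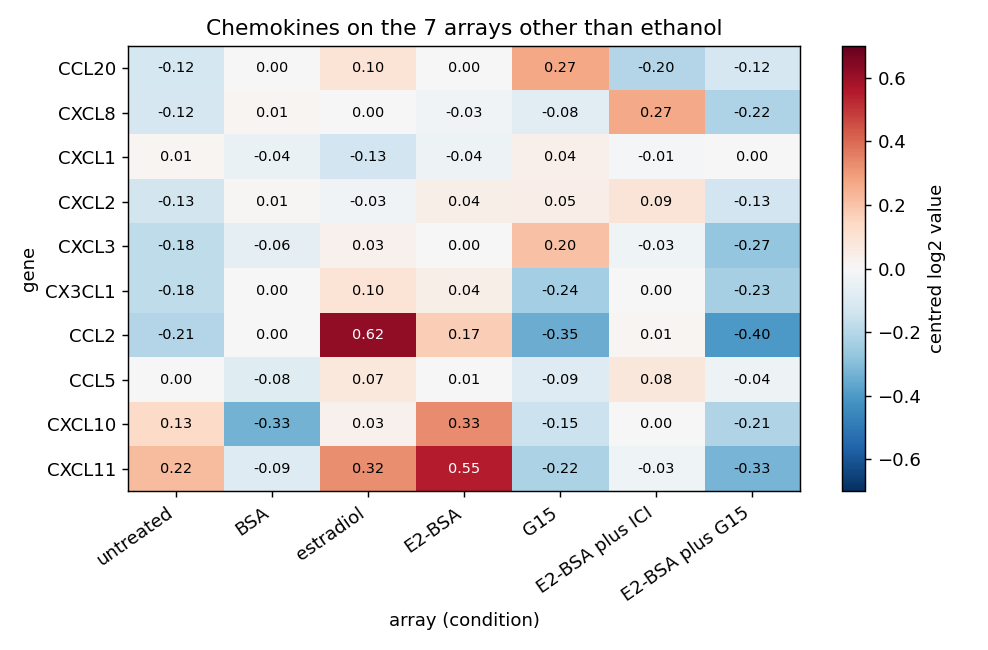
Centred log2 values of the 10 chemokines (rows) on the 7 arrays other than ethanol (columns), with the value printed in each cell and the colour running from blue (below 0) to red (above 0). CCL2 with estradiol (0.62) and CXCL11 with E2-BSA (0.55) are the highest cells, and 9 of the 10 genes are below 0 with E2-BSA plus G15. The share of all genes below 0 on that array was not counted.

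Along the chromosome several members lie beside chemokine genes with small ethanol differences. In the chromosome 4 cluster of 9 genes, ordered by the RefSeq assembly GRCh38.p14, CXCL8, CXCL1, CXCL3 and CXCL2 alternate with 5 others. Ethanol minus untreated was 0.13 for CXCL6, -0.10 for PF4V1, -0.37 for PF4, 0.10 for PPBP and 0.13 for CXCL5, each of which lies between 2 of the members. CXCL6 and CXCL5 are neutrophil attractants too. Next to CXCL10 and CXCL11, CXCL9, the third ligand of CXCR3, differed by 0.10. On chromosome 17 CCL7, the nearest neighbour of CCL2, differed by -0.44, and CCL11, CCL8 and CCL1 by 0.02, -0.02 and 0.00. Whether these neighbours are expressed in the cells at all cannot be read from centred values.

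**Figure D4:**
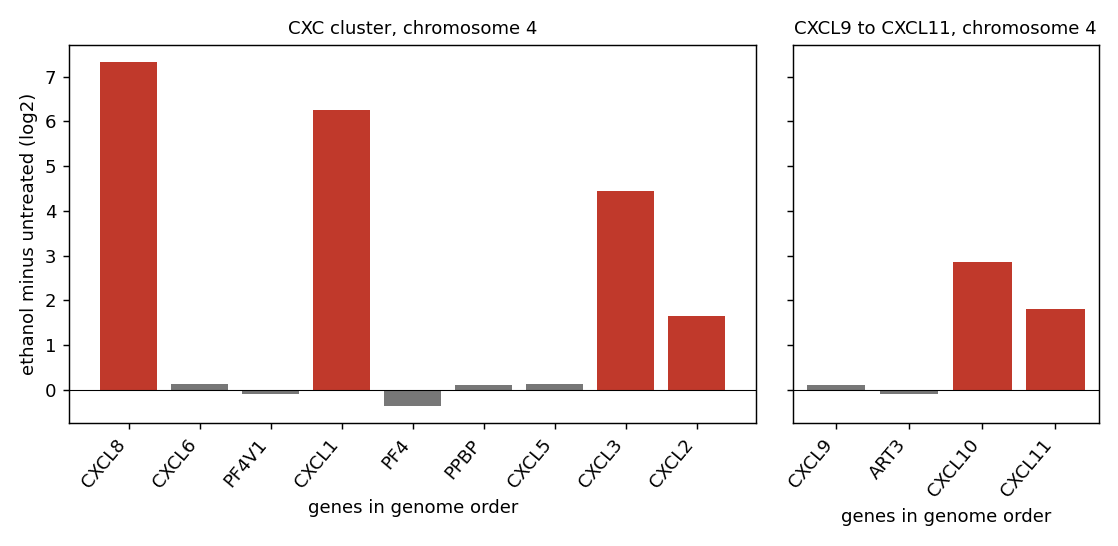
Ethanol minus untreated difference (log2, bars from 0) of the genes of 2 stretches of chromosome 4, in genome order, with the members in red. CXCL8 (7.33), CXCL1 (6.26), CXCL3 (4.45) and CXCL2 (1.65, a mean of probe sets that disagree) stand beside 5 genes between -0.37 and 0.13.

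Of the other 29 chemokine ligands measured, 0 were 2-fold higher or lower than untreated, with a median of -0.03. Nothing is read from this count, since the 10 members were chosen for high values on the ethanol array and 0.87% of all genes were 2-fold higher there. Among the 29 the highest, CXCL16, a membrane-bound chemokine, differed by 0.58 and is named after its value was seen. Of 20 chemokine receptors 0 reached 2-fold, with a median of -0.12.

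Of 14 NF-kB subunits and inhibitors, 7 were at least 2-fold higher and 0 lower, with a median of 1.03. They were the feedback inhibitors TNFAIP3 (5.17), NFKBIZ (2.40), NFKBIE (2.09) and NFKBIA (1.31), although NFKBIZ is also a nuclear co-activator, and the subunits RELB (1.70), REL (1.55) and NFKB1 (1.11). Of 21 inducers and their receptors 2 were higher, TNF (5.20) and the microbial sensor NOD2 (2.62); IL1A, IL1B and IL6 did not reach 2-fold, and the median was 0.03. Of 17 interferon signalling genes 2 were higher, the transcription factor IRF1 (3.69) and the RNA sensor IFIH1 (1.21), with a median of 0.16. The interferons IFNB1 (-0.10), IFNL1 (0.03) and IFNG (0.01) did not reach 2-fold. Of 7 genes acting on the decay or stability of chemokine transcripts, ZFP36 (2.46), which destabilizes them, was the only gene at 2-fold. These lists were written with results of the ethanol array known, and 0.87% of all genes were 2-fold higher there. Nothing is read from the counts.

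**Figure D5:**
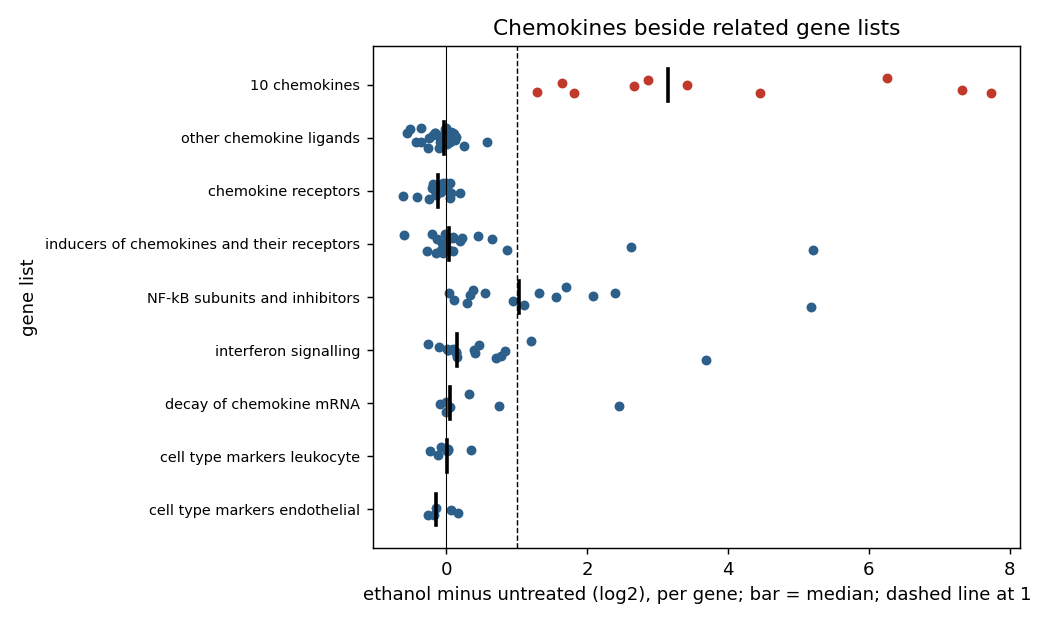
Ethanol minus untreated difference (log2, x axis) of each gene of the 10 chemokines (red) and of 8 related lists (blue), with the median of each list as a black bar and 2-fold as a dashed line. All 10 chemokines lie past 1, as do 7 of 14 NF-kB genes and 0 of 29 other chemokine ligands, beside 0.87% of all genes.

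The listed markers of other cell types stayed within 2-fold where the chemokines were high. SELE, the endothelial adhesion molecule named above, was not on the list and stood at 5.87 on the ethanol array. On ethanol minus untreated 0 of 7 leukocyte, 0 of 5 endothelial and 0 of 6 fibroblast markers were 2-fold higher or lower, with the highest at 0.35 (ITGAM). The summed values of the 7 leukocyte markers ran over the arrays from -0.63 (E2-BSA) to 1.14 (E2-BSA plus ICI), with -0.11 on the ethanol array. Of 9 luminal epithelial markers 0 reached 2-fold. As 0.87% of all genes were 2-fold higher with ethanol, nothing is read from these marker counts. Centring removes the level, so whether a marker is present or at background, and with it the labelled cell type, cannot be checked here. In bulk RNA, fewer expressing cells and less RNA per cell cannot be told apart.

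Estradiol was compared with its ethanol vehicle, and all 10 chemokines were at least 2-fold lower, where 0.865% of all genes were. The comparison shares the ethanol array on which the members were selected. Free estradiol is itself dissolved in ethanol, and on the estradiol array CCL20 stood at 0.10, CXCL8 at 0.00 and CXCL1 at -0.13. Whether the high values came from ethanol itself or from that single culture or array was not tested. Estradiol minus ethanol differences ran from -7.51 for CCL20 to -1.21 for CCL5. Of the 21 inducers and their receptors 3 were 2-fold lower, TNF (-5.02), NOD2 (-2.91) and IRAK2 (-1.06), a kinase of interleukin 1 and Toll-like receptor signalling. Against untreated cells 0 of 10 reached 2-fold, beside 0.0152% of all genes in either direction, and the median was 0.11. CCL2 differed by 0.83, the fourth highest difference of all 19775 genes, and was the only member at 1.5-fold, which 0.086% of all genes reached upward. Set against BSA it was 0.62. CX3CL1 differed from untreated by 0.27, CCL20 by 0.22, CXCL3 by 0.20, CXCL10 by -0.10 and CXCL1 by -0.15.

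E2-BSA was compared with its carrier BSA, and the largest differences among the 10 were those of the interferon-driven pair. CXCL10 was higher by 0.66 and CXCL11 by 0.64, and 0.339% of all genes were 1.5-fold higher or more. The 7 NF-kB-driven members lay between -0.04 and 0.17. None of the 10 was at 2-fold in this comparison, beside 0.0202% of all genes. Part of the difference lies in the BSA array: BSA minus untreated was -0.47 for CXCL10 and -0.31 for CXCL11, and E2-BSA minus untreated was 0.20 and 0.32. The CXCL11 probe sets gave 0.49 and 0.79 against BSA. On BSA minus untreated 0 of 10 members reached 2-fold, where 0.0303% of all genes did, and the NF-kB-driven members had a median of 0.13.

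Free and coupled hormone, both stated at 1e-06 M, differ by the albumin to which estradiol is attached and also by the ethanol in which the free hormone is dissolved, and these cannot be told apart here. On estradiol minus E2-BSA 0 of 10 members were at 2-fold, beside 0.0152% of all genes. CCL2 was higher with the free hormone by 0.45, and CXCL10 and CXCL11 were lower by differences of -0.30 and -0.22. The other 7 lay between -0.10 and 0.10. With 1 array each there is no interval for these differences, so neither a difference nor its absence is shown.

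G15 alone was compared with untreated cells. At 2-fold 0 of 10 members differed, beside 0.00506% of all genes. CCL20 (0.40) and CXCL3 (0.38) were above untreated, and CXCL11 (-0.45) and CXCL10 (-0.28) below it. Against BSA CXCL11 differed by -0.14 and CXCL10 by 0.18, so the sign for CXCL10 depends on the reference.

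The antagonists were then compared in the presence of E2-BSA. With G15 added, 9 of 10 chemokines had lower values than with E2-BSA alone, with a median of -0.23 beside -0.01 for all genes. CXCL11 differed by -0.88, CCL2 by -0.57 and CXCL10 by -0.54, and CXCL1, at 0.04, was not lower. The count rests on the mean of probe sets that disagree: with the probe set of largest SD, CXCL8 stood at 0.010 and CXCL2 at 0.065, which leaves 7 of 10 lower. The share of all genes below 0 was not counted, so nothing is read from either count. At 2-fold there were 0 of 10, beside 0.0455% of all genes; CXCL11 alone was 1.5-fold lower, beside 0.359%, and its probe sets gave -0.74 and -1.01. The E2-BSA plus G15 array held the lowest value of the 8 for 5 of the 10 chemokines (CXCL8, CXCL3, CCL2, CXCL11 and, level with untreated at -0.13, CXCL2), and for 11.4% of all genes. For CXCL8 and CXCL2 this depends on the probe set: the CXCL8 and CXCL2 probe sets of suffix x were lowest in untreated cells, at -0.28 and -0.41, beside -0.04 and 0.00 with E2-BSA plus G15. Against G15 alone 0 of 10 reached 2-fold, beside 0.0152% of all genes; CXCL3 (-0.48) and CCL20 (-0.39) were lower, while CCL2 (-0.06), CXCL10 (-0.06) and CXCL11 (-0.10) were close to their values with G15 alone. This comparison and the previous share an array, so their values are only set side by side. On E2-BSA plus G15 minus E2-BSA, 8 of 14 NF-kB genes were below 0 (median -0.11) and 9 of the other 29 chemokine ligands (median 0.07). Nothing is read from the counts of these 2 lists, for the same reason. The lowest of these lists, named after their values were seen, were NFKBIA at -0.50 and CXCL16 at -0.71.

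With ICI added to E2-BSA 0 of 10 reached 2-fold, beside 0.0708% of all genes. CXCL11 differed by -0.58 and CXCL10 by -0.33, and CXCL8 by 0.29. The CXCL11 probe sets gave -0.31 and -0.84, and against untreated CXCL11 stood at -0.25 and CXCL10 at -0.13. The 7 NF-kB-driven members had a median of -0.03, between -0.20 for CCL20 and 0.29 for CXCL8. The E2-BSA plus ICI array was then set against that of E2-BSA plus G15. There 8 of 10 members were above 0, with a median of 0.23 beside 0.02 for all genes. The share of all genes above 0 was not counted, so nothing is read from the 8 of 10. At 2-fold there were 0 of 10, beside 0.0101% of all genes. CXCL8 (0.48) and CCL2 (0.42) led, and CCL20 (-0.09) and CXCL1 (-0.01) were below 0.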

How the data were processed

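Total RNA from SKBR3 cells was labelled with biotin and hybridized to Affymetrix HG-U133 Plus 2 arrays, per the labels' protocols. Values were taken as deposited and treated as log2; no source used here gives their base, probe summarization, normalization or centring. In every probe set at most 4 of 8 arrays lie above 0 and at most 4 below, and the median of each array is 0.00. Read as natural logs, all differences would be larger in log2 units.

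Names came from the platform annotation, updated through gene identifiers (41037 of 41091 probe sets with 1 gene matched); 62 control probe sets were left out and no filter was applied. A gene is the mean of its probe sets. In 11 comparisons of 1 array with another, genes past 2-fold were counted, with no test. The members and the 13 lists were chosen with earlier results of these data known, and the motifs with the promoters in view. Named genes were the 10 members, list genes at 2-fold in any comparison and the 3 nearest profiles to 5 members; others were picked with their values in view. Promoters are RefSeq, GRCh38.p14. The number of arrays limits the precision. The counting step was tested on simulated data with planted differences well above the threshold and little noise. That setting is easier than the real arrays, so it tests only the code. Alternatives were array centring, other probe set choices, natural logs, a 1.5-fold threshold and other reference arrays. Python 3.11.15, pandas 2.3.3, numpy 2.4.6 and matplotlib 3.10.9 were used.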

Additional observations from a re-analysis of the deposited data

How the results depend on the processing

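No paired analysis was possible because each condition has 1 array and no test was made; no replicate could be left out. Of 62 counts of chemokines at 2-fold recomputed under an alternative, 56 stayed within 1.5 times the reported count, and the counts for ethanol minus untreated and estradiol minus ethanol were among them. Array centring could change no count, since the median of each array was already 0.00, so its counts among the 56 show nothing. For ethanol minus untreated and estradiol minus ethanol, natural logs and the 1.5-fold threshold could not lower a count of 10 of 10. Those counts show nothing either. The other 6 counts moved from 0. For estradiol minus untreated the count was 1 when values were read as natural logs and 1 at the 1.5-fold threshold (CCL2 in both). For E2-BSA plus G15 minus E2-BSA it was 1 with the probe set of largest SD, 1 with natural logs and 1 at 1.5-fold (CXCL11). For E2-BSA minus BSA it was 2 at 1.5-fold (CXCL10 and CXCL11). Without probe sets of suffix s, x or a, 7 of the 8 chemokines that keep a value were at 2-fold with ethanol, CXCL8 and CCL2 have no value, and CXCL2 reversed on ethanol minus untreated, to -0.012, since only its flat probe sets are left. With the median of the other 7 arrays as reference, an alternative chosen after seeing the data, 10 of 10 were higher with ethanol. Of single gene differences, 387 moved by less than the SD of BSA minus untreated (0.17) and 100 by more. The 387 include all those under array centring, which could not move. They also include genes with 1 probe set under another probe set choice, and CX3CL1 without suffixed probe sets, which could not move either. Signal over background is lost with the centring, so low and absent transcripts cannot be told apart.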
